A study of Mus musculus with 6 samples.

Results

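The genes described here are the 4 serum amyloid A genes of the mouse, Saa1, Saa2, Saa3 and Saa4, and Lcn2, the gene for lipocalin 2. They are 5 of the 55450 genes in the count files. They were chosen by name, on measured values of these libraries, because Lcn2 and Saa2 are among the genes that were farthest apart between the time points. Their own levels at 0 h and 48 h are therefore given as a description, without a test, and the rule has no threshold that a gene could narrowly pass or miss. All 5 genes had at least 10 counts in at least 3 libraries and so were part of the fit across 17037 genes.

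The data are 6 bulk RNA-Seq libraries of primary hepatocytes from C57BL/6 mice, 3 from undamaged liver (0 h) and 3 from the liver that remained 48 h after partial hepatectomy (PHx), an operation that removes most of the organ. The mice ate a normal diet and were 10 to 12 weeks old in the sample labels. The study's methods describe male mice of the substrain C57BL/6J and of a slightly younger age. Each library came from a separate hepatocyte preparation. Both groups shared the perfusion of the liver with collagenase that frees hepatocytes, and neither a sham operation nor another time point is among these libraries, so the loss of tissue and the surgery itself cannot be told apart. The preparations can still hold cells other than hepatocytes.

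Serum amyloid A (SAA) proteins are small apolipoproteins. SAA1 and SAA2 are acute-phase proteins, made by hepatocytes on stimulation by interleukin 6, interleukin 1 and tumor necrosis factor, secreted, and carried in plasma mostly on high-density lipoprotein. SAA3 is known mainly from macrophages, adipocytes and epithelia, and SAA4 is the constitutive member of the family, made by the resting liver. Lipocalin 2 is a secreted protein that binds iron-loaded bacterial siderophores and so withholds iron from bacteria. It is stored in the granules of neutrophils, and hepatocytes, epithelial cells and macrophages also make it during inflammation.

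The genes Saa3, Saa4, Saa1 and Saa2 lie in this order within 42316 bases of chromosome 7 (GRCm38), and the annotated exons of the 5 genes overlap those of no other gene. Saa1 (ENSMUSG00000074115.5) is on the minus strand at chr7:46740497-46742980 and Saa2 (ENSMUSG00000057465.5) on the plus strand at chr7:46751790-46754313, so that the pair is transcribed away from each other from starts 8810 bases apart. Saa4 (ENSMUSG00000040017.8) is at chr7:46727998-46732603 and Saa3 (ENSMUSG00000040026.8) at chr7:46711998-46715700, both on the minus strand. Lcn2 (ENSMUSG00000026822.14) is on the minus strand of chromosome 2, at chr2:32384633-32388252.

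Because Saa1 and Saa2 are close copies, what separates their reads is shown first. Their coding sequences, read from the annotated transcripts of GENCODE M21, are 369 bases long, are identical at 351 bases and differ by 18 substitutions (95.1% identity). The first 150 bases, from base 1 of the start codon, hold 11 of these differences, which stand in capitals.
Saa1 coding bases 1 to 150: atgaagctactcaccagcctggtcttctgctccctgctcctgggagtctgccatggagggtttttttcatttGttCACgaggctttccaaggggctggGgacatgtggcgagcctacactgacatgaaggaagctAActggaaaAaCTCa
Saa2 coding bases 1 to 150: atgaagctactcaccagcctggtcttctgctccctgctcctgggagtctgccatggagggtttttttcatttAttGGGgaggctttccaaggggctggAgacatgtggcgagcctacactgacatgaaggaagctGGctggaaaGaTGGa
The longest run without a difference was 73 bases. Of the 320 stretches of 50 bases in the Saa1 coding sequence, 47 (14.7%) also occurred in Saa2, and of the 270 stretches of 100 bases, 0 did. Reads of 100 bases from the coding part would therefore differ between the copies, whereas part of the reads of 50 bases would not, and the read length was not given in the sources used here. Saa3 shared 9 of 320 stretches of 50 bases with Saa1 and 0 with Saa2, and Saa4 and Lcn2 shared 0 with any other member. For these reasons the sum of Saa1 and Saa2 is given beside the single genes.

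The libraries held 31419443 to 36346220 gene counts at 0 h and 31684152 to 33093006 at 48 h. At these depths 3 counts, the smallest level taken as shown, came to 0.0825 to 0.0955 CPM (counts in a library per 1000000 of its gene counts, here without further scaling). Mitochondrial genes took 5.42% to 6.66% of the counts. All 14 hepatocyte markers (Alb, Ttr, Apob, Cps1 and others) had more than 3 counts in every library, and their summed level was 120000 to 141600 CPM at 0 h and 82550 to 100700 CPM at 48 h, both after scaling by TMM factors, as are all CPM from here on. Alb alone had means of 63550 CPM at 0 h and 35070 CPM at 48 h, and the markers did not all go one way. The means of Ttr and Cyp2e1 were also lower at 48 h, while those of Fgb, Ahsg and Hnf4a were higher. Trf and Cps1 had nearly the same mean at both times. Of the 17037 genes tested, 21.4% were called higher and 19.3% lower at 48 h by edgeR's quasi-likelihood test at an adjusted p under 0.05. With library totals in place of TMM factors the split was 5308 higher and 2110 lower, against 3638 and 3288, and the median log2 fold change of all genes moved from -0.00 to 0.20.

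Lcn2 showed the largest increase of any tested gene. Its level was 4.39, 3.80 and 3.28 CPM in the 3 libraries at 0 h, from 129, 118 and 109 counts. At 48 h it was 4498, 1903 and 1475 CPM, from 151476, 68029 and 51655 counts. The groups were far apart, and the lowest library at 48 h was 336 times the highest at 0 h. The means were 3.83 ± 0.555 and 2625 ± 1636 CPM (SD, n = 3 in each group), a log2 fold change of 9.42 (SE 0.500). This put Lcn2 first when the 17037 genes were ordered from the largest increase down. At 0 h Lcn2 was a low gene but had 109 counts or more in each library, so the fold change did not rest on a library near 0.

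Saa2 was at 6.81, 4.25 and 3.70 CPM in the libraries at 0 h and at 2899, 1449 and 1174 CPM at 48 h. Its log2 fold change was 8.55 (SE 0.447), or 375-fold, which was place 4 in the order of increases among the genes tested. Saa1, the other acute-phase SAA of the mouse liver, was at 19.4, 12.2 and 13.0 CPM at 0 h and at 3086, 1514 and 1438 CPM at 48 h. This was a log2 fold change of 7.08 (SE 0.380), or 135-fold, and the place of Saa1 in that order was 16, with 16 genes at a log2 fold change of 7 or more. In neither gene did the groups overlap, and the lowest library at 48 h was 172 times the highest at 0 h for Saa2 and 74.1 times for Saa1.

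The sum of Saa1 and Saa2, which does not depend on how reads were divided between them but would lack any that were dropped for matching both, was 26.2, 16.4 and 16.7 CPM at 0 h and 5985, 2963 and 2612 CPM at 48 h. Its log2 fold change was 7.61 (SE 0.409). The ratio of Saa1 to Saa2 counts was 2.85, 2.86 and 3.51 at 0 h and 1.06, 1.05 and 1.23 at 48 h. The names are those of GENCODE M21, and RefSeq lists each of Saa1 and Saa2 also as a synonym of the other. The copies thus went from a clear excess of Saa1 to nearly equal counts, and the ratios of the groups did not overlap. Per kilobase of merged exons the ratio was 3.13 ± 0.385 at 0 h and 1.13 ± 0.101 at 48 h (SD, n = 3 in each group).

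Saa3 was a low gene throughout. It was at 1.46, 3.38 and 1.84 CPM at 0 h, from 43, 105 and 61 counts, and at 33.5, 5.79 and 4.08 CPM at 48 h, from 1127, 207 and 143 counts. The high value was that of 48 h replicate 1 alone, and the lowest library at 48 h was only 1.21 times the highest at 0 h. The log2 fold change was 2.69 (SE 0.719) with all libraries and 1.14 (SE 0.335) without 48 h replicate 1. In the order of increases Saa3 stood at place 464 among the genes tested.

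Saa4, the constitutive gene, had overlapping levels at the time points. It was at 272, 206 and 282 CPM at 0 h and at 300, 239 and 271 CPM at 48 h. The log2 fold change was 0.09 (SE 0.151), with the sign turning to -0.05 when 0 h replicate 2 was left out. Of the 5 genes, 4 thus had every 48 h library above every 0 h library, the contrast on which they were chosen. This was so for 27.8% of all tested genes, and 21.4% were called higher.

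**Figure D1:**
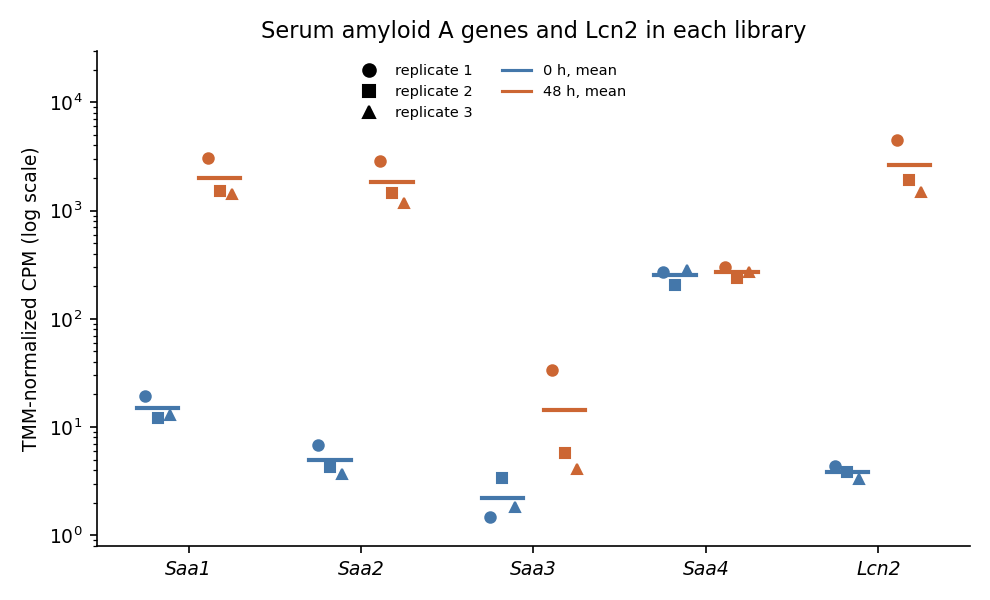
The level of each gene is plotted in TMM-normalized CPM on a log axis, with blue points for the 3 libraries at 0 h, orange points for the 3 at 48 h, a marker shape for each replicate number and a line at each group's mean. Saa1, Saa2 and Lcn2 lay at 3.28 to 19.4 CPM at 0 h and at 1174 to 4498 CPM at 48 h, Saa3 was set apart mainly by 48 h replicate 1, and the Saa4 groups overlapped.

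The make-up of the family's counts therefore turned over, with merged exons of 2094 to 2606 bases in the 4 genes. At 0 h Saa4 took 90.8%, 91.2% and 93.8% of the counts on the 4 SAA genes, and Saa1 and Saa2 together took 8.74%, 7.27% and 5.56%. At 48 h Saa4 took 4.75%, 7.45% and 9.38%, and Saa1 and Saa2 together took 94.7%, 92.4% and 90.5%. The constitutive gene made up most of the counts in every library at 0 h and the acute-phase pair most of them in every library at 48 h. Saa3 stayed a small part, at 0.488% to 1.50% at 0 h and 0.141% to 0.530% at 48 h, although its own level was higher at 48 h. The counts of Lcn2 were 0.168 to 0.231 of those of Saa1 and Saa2 together at 0 h and 0.565 to 0.751 of them at 48 h. In all, the 5 genes took 0.0285%, 0.0218% and 0.0278% of all gene counts at 0 h and 1.10%, 0.560% and 0.482% at 48 h.

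**Figure D2:**
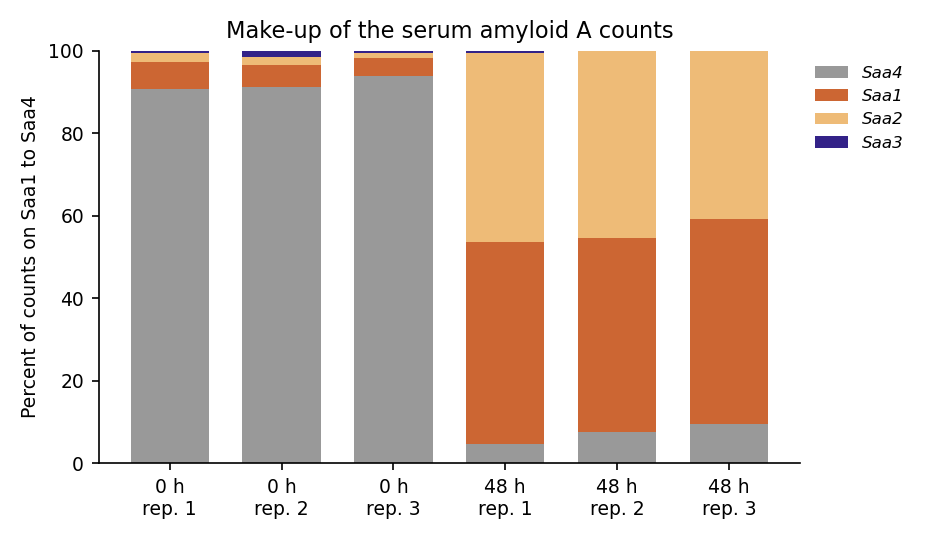
Each bar is a library and shows, in percent, how the counts on Saa1, Saa2, Saa3 and Saa4 were divided among the 4 genes. Saa4 made up 90.8% to 93.8% at 0 h and 4.75% to 9.38% at 48 h, where Saa1 and Saa2 took nearly all of the rest in almost equal parts.

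Levels of different genes were compared as CPM per kilobase of merged exons. At 0 h the order was Saa4 at 121 ± 19.7, Saa1 at 6.00 ± 1.59, Saa2 at 1.95 ± 0.658, Lcn2 at 1.46 ± 0.211 and Saa3 at 0.855 ± 0.391 CPM per kilobase (SD, n = 3 each). This order held within every library at 0 h, but with the length of the longest transcript of each gene Lcn2 was above Saa2 in every library. Over the 3 libraries the ranges of Saa2 and Lcn2, and those of Lcn2 and Saa3, overlapped. At 48 h the order was Lcn2 at 1001 ± 624, Saa1 at 812 ± 375, Saa2 at 731 ± 368, Saa4 at 129 ± 14.6 and Saa3 at 5.54 ± 6.33 CPM per kilobase. Over the 3 libraries the ranges of Lcn2, Saa1 and Saa2 overlapped. Within each library Lcn2 and Saa1 were above Saa2, and Lcn2 was above Saa1 in replicates 1 and 2 and below it in replicate 3. This too depends on the length, since with the longest transcript Lcn2 was above Saa1 in every library, and with the longest protein-coding transcript it was below Saa2 in replicates 2 and 3. All of them lay above Saa4, and Saa4 above Saa3.

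Among 21951 protein-coding genes ordered by the mean per kilobase, Lcn2 moved from place 8258 to 40, Saa2 from 7533 to 56, Saa1 from 4106 to 46 and Saa3 from 9389 to 4607, and Saa4 was at 291 and at 232. At 48 h the mean of Lcn2 was 6.68%, that of Saa1 5.42% and that of Saa2 4.88% of the mean of Alb, the albumin gene, which is the most abundant plasma protein. These shares depend on the length used, since transcripts annotated with a retained intron extend the merged exons of Saa1 to 2478 bases and of Saa2 to 2518, against 609 and 652 for their longest protein-coding transcripts. With the length of the longest transcript of each gene, Lcn2, Saa1 and Saa2 were at 11.1%, 4.77% and 4.37% of Alb and at places 26, 56 and 62. With the length of the longest protein-coding transcript, a choice added after the data were seen, they were at 16.6%, 19.2% and 16.4% of Alb and at places 16, 13 and 18, so that Saa1 came before Lcn2. In bulk samples, fewer cells with a transcript and less transcript per cell cannot be told apart.

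Apart from Saa4, these genes differed among the 3 libraries at 48 h by far more than most genes. The chi-square of the counts of a library pair, averaged over genes, was 53.8 for replicates 1 and 2, 76.1 for replicates 1 and 3, and 32.9 for replicates 2 and 3. Abundant genes weigh most in this average, Lcn2 and acute-phase genes such as Fga among them. Of all genes tested, 35.1% were highest in replicate 1, 30.9% in replicate 2 and 34.0% in replicate 3. The SD of log2 CPM among the 48 h libraries was 0.84 for Lcn2, 0.68 for Saa2, 0.62 for Saa1, 1.63 for Saa3 and 0.16 for Saa4, and the median over 7583 genes of at least 10 CPM was 0.12. The highest library was 3.05 times the lowest for Lcn2, 2.47 times for Saa2, 2.15 times for Saa1, 8.19 times for Saa3 and 1.26 times for Saa4, against a median of 1.17 times. Of the 7583 genes, 99.4% had a smaller SD than Lcn2, 99.0% than Saa2 and 98.6% than Saa1, but only 69.8% had one smaller than Saa4. Replicate 1 was the highest of the 48 h libraries for all 5 genes, and replicate 3 the lowest for all except Saa4, for which it was replicate 2. Without 48 h replicate 1 the log2 fold change was 8.79 for Lcn2, 8.06 for Saa2 and 6.63 for Saa1, so the fold was smaller by 1.56, 1.40 and 1.36 times and the direction stood.

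Most genes of the list of other acute-phase proteins were also highest in replicate 1. Of the 29 tested genes of that list, 26 were highest in 48 h replicate 1, against 35.1% of all genes tested. In the 24 of them that no other list holds, the number was 21. Of the 19 transcription factors, 10 were highest in replicate 1, as were 9 of 21 genes of cytokine receptors and signalling, 10 of 18 feedback inhibitors and 7 of 14 SAA partners and receptors. Of the LCN2 partners it was 3 of 10, and of the lipocalin relatives 5 of 9, or 2 of the 6 that no other list holds.

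**Figure D3:**
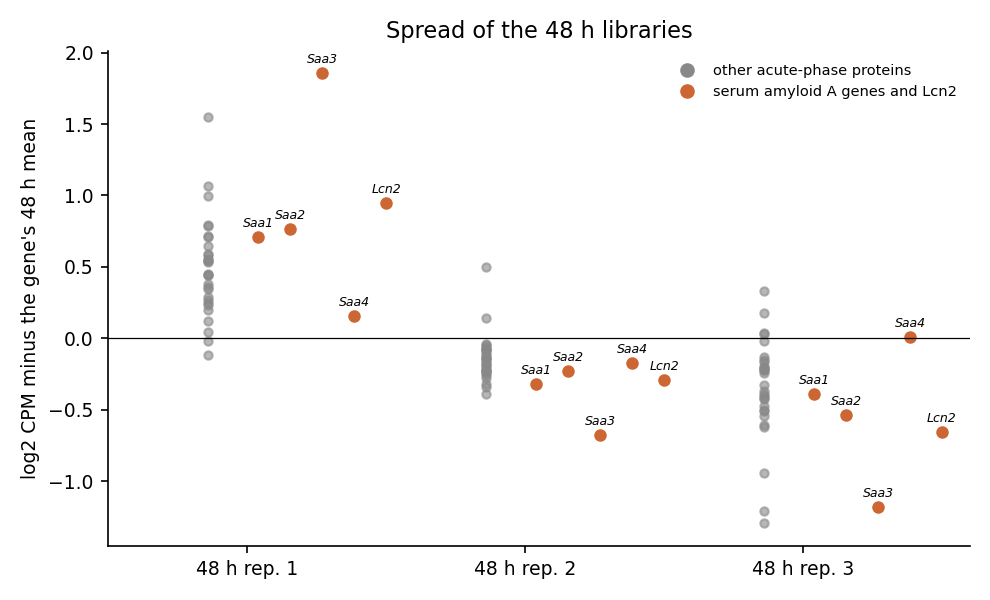
For each 48 h library the log2 CPM of a gene minus that gene's mean over the 3 libraries is plotted, in grey for the 29 tested genes of other acute-phase proteins and in orange for the serum amyloid A genes and Lcn2. In replicate 1 all 5 orange points and most grey points lie above 0, and in replicates 2 and 3 most lie below it.

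Markers of other cells were measured in the same libraries. Neutrophils store lipocalin 2, and the summed level of 14 neutrophil markers was 1.19 to 1.36 CPM at 0 h and 10.4 to 21.7 CPM at 48 h. Mpo, Ltf, Retnlg and Stfa2 were at 0 in every library, and 10 of the 14, with S100a8, S100a9 and Ly6g among them, had 3 counts or fewer in every library. Nearly all of the sum at 48 h was Prtn3, the proteinase 3 gene, at 20.7, 14.5 and 8.83 CPM, and the other 13 markers summed to 1.13 to 1.23 CPM at 0 h and 1.04 to 1.54 CPM at 48 h. Within that sum, the means of Camp (0.0549 and 0.484 CPM) and Elane (0.0976 and 0.354 CPM), both granule genes, were higher at 48 h, with no overlap of the groups, and that of Csf3r was lower (0.956 and 0.430 CPM). Camp had 2, 3 and 0 counts at 0 h and 6, 19 and 26 at 48 h, and Elane 5, 1 and 3 and then 13, 16 and 8. In 27.8% of all tested genes every 48 h library was above every 0 h library.

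Macrophages are a known source of SAA3. The 14 markers of Kupffer cells and macrophages all had more than 3 counts in every library, and they summed to 94.4, 141.3 and 140.7 CPM at 0 h and to 132.7, 163 and 146 CPM at 48 h. The markers did not all go one way. Marco was at 0.890 ± 0.174 CPM at 0 h and 8.20 ± 0.581 at 48 h, and the means of Cd5l, Cd68 and Cd163 were also higher, while Clec4f was at 15.3 ± 4.24 and 14.2 ± 2.47 and Csf1r at 20.6 ± 4.38 and 16.7 ± 1.32 CPM (SD, n = 3). The sums for endothelial cells were 228 to 362 CPM at 0 h and 162 to 178 at 48 h, for stellate cells and fibroblasts 66.6 to 108.7 and 62.0 to 74.5, for cholangiocytes 0.904 to 2.62 and 2.32 to 7.54, and for T and B cells 2.90 to 4.29 and 1.60 to 2.29. Single genes carried some of these sums, namely Reln and Dcn that of stellate cells, Spp1 that of cholangiocytes and Cd4 that of T and B cells, and the other markers of the latter 2 lists had 8 counts or fewer in every library. Against the stellate sum, the collagen gene Col1a1 went from a mean of 0.815 to 4.02 CPM and the elastin gene Eln from 0.520 to 3.77 CPM. Their part in the levels of the SAA genes and Lcn2 was not tested.

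The bases before the start of each gene are shown for the SAA pair and for Saa4, since the levels of Saa1 and Saa2 were both apart between the time points and those of Saa4 overlapped. The windows run from 250 to 44 bases before the start that RefSeq annotates on GRCm38.p6. Capitals mark matches, on either strand, to TTGCNNAA, part of the site of C/EBP factors, and to part of the kappaB site of NF-kappaB, read as GG, then 3 bases of any kind, then TTTCC. The motifs were chosen with these sequences in view.
Saa1 (chr7:46743024-46743230, minus strand): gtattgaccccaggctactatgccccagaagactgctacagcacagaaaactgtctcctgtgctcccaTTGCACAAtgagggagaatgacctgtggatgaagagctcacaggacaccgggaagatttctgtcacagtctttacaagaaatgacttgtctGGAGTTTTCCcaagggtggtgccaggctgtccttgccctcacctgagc
Saa2 (chr7:46751583-46751789, plus strand): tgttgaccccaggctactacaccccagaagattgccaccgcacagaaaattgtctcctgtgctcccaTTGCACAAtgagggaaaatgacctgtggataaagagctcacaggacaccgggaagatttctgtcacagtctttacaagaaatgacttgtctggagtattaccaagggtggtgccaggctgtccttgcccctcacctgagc
Saa4 (chr7:46732647-46732853, minus strand): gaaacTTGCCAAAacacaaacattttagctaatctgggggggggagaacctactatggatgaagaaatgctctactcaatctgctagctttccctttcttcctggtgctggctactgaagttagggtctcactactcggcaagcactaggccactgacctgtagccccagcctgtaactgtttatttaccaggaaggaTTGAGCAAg
Over the 250 bases before the start, Saa1 and Saa2 were 94.8% identical, with 11 substitutions and 2 gap bases, whereas Saa1 and Saa4 were 42.6% identical and Saa1 and Lcn2 49.0%. The C/EBP letters occurred once each in Saa1, Saa2, Saa3 and Lcn2, beginning 182, 183, 99 and 216 bases before the start, and at 245 and 52 bases in Saa4. They occurred in 9.57% of 32817 mouse promoters of the same length. The kappaB letters occurred in Saa1 only, beginning 91 bases before the start, and in 4.63% of all promoters. TTCNNNGAA, the core of the STAT site, and TATAAA occurred in none of the 5 windows and in 7.01% and 12.4% of all promoters. These matches are a description of the letters and no measure of binding.

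The neighbours of the 2 loci were called by the same fit, each with its adjusted p from edgeR's quasi-likelihood test over all genes. Of the 5 tested neighbours within 100 kb of an SAA gene, 2 were higher at 48 h and 0 lower, where 21.4% and 19.3% of all genes tested were called. Saal1, named for its resemblance to SAA, was at 4.36 ± 0.413 CPM (SD, n = 3) at 0 h and 7.71 ± 0.888 at 48 h, a log2 fold change of 0.82 (SE 0.159, adjusted p = 0.00223). Ldha, a lactate dehydrogenase subunit, had a log2 fold change of 1.53 (SE 0.136, adjusted p = 1.41e-05). Hps5 (-0.02), Gtf2h1 (0.18) and Sergef (0.42) were not called, Tph1 had 0 counts in all libraries, and the pseudogene Saa-ps, between Saa4 and Saa1, had 1 count in 1 library and 0 in the others.

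Of the 5 tested genes around Lcn2, 1 was higher and 1 lower at 48 h, where 21.4% and 19.3% of all genes tested were called. Slc25a25, a mitochondrial carrier, was lower at 48 h (log2 fold change -1.46, adjusted p = 2.47e-05), and 1110008P14Rik, the nearest neighbour with a call, was higher (0.81, adjusted p = 0.00456). Ciz1 (0.04), Ptges2 (0.06) and Naif1 (0.19) were not called, and Dnm1 had too few counts to be tested.

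**Figure D4:**
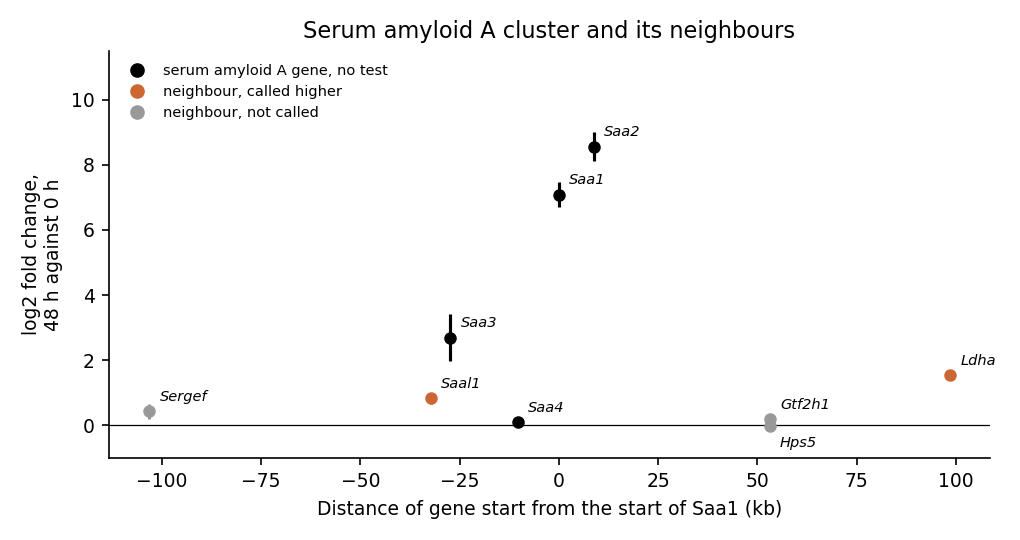
Log2 fold changes at 48 h against 0 h (vertical axis, bars are SE) are plotted by the distance of each gene's start from that of Saa1 in kilobases. Saa1 and Saa2 stand at 7.08 and 8.55, Saa3 at 2.69 and Saa4 at 0.09, and the tested neighbours lie between -0.02 and 1.53.

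The genes that act upstream of SAA and Lcn2 in the liver were followed as lists, each gene by its adjusted p from edgeR's quasi-likelihood test over all 17037 genes. Of 21 tested genes of cytokine receptors and signalling, 5 were higher and 3 lower at 48 h (23.8% and 14.3%, median log2 fold change 0.06), beside 21.4% and 19.3% of all genes tested. Osmr, the oncostatin M receptor, was at 2.22 ± 0.548 CPM at 0 h and 14.5 ± 5.30 at 48 h (SD, n = 3), a log2 fold change of 2.70 (SE 0.276, adjusted p = 3.67e-05). Il1r1, the signalling receptor of interleukin 1, rose by 1.45 (SE 0.139, adjusted p = 2.31e-05), while Il1rap, the chain it pairs with, fell by 1.23 (adjusted p = 0.000129). Il6ra, the interleukin 6 receptor, rose by 0.51 (adjusted p = 0.0212), a call that was lost when 0 h replicate 1, 0 h replicate 3 or 48 h replicate 2 was left out, and its partner Il6st was at -0.24 and not called. Lifr, the receptor of leukemia inhibitory factor, fell by 1.66 (adjusted p = 0.000116). Of the tumor necrosis factor receptors, Tnfrsf1a rose by 0.73 and Tnfrsf1b fell by 0.68 (adjusted p = 0.00084 and 0.000461). Il1rn, which blocks Il1r1, rose by 1.25 (adjusted p = 0.0162), and this call was lost without 0 h replicate 1 or 48 h replicate 1. With library totals in place of TMM factors, 9 genes of this list were called higher, where 31.2% of all genes were.

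Among 19 tested transcription factors of the acute phase, 4 were higher and 1 lower (21.1% and 5.26%, median 0.09), beside 21.4% and 19.3% of all genes tested. The share of increases was thus near that of all genes. Stat3, the factor activated by interleukin 6, rose by 0.82 (SE 0.130, adjusted p = 0.000677). Bcl3, a partner of NF-kappaB subunits, rose by 0.70 (adjusted p = 0.0011). Cebpd rose by 1.10 (adjusted p = 0.00188), Cebpa, which is linked to the resting hepatocyte, fell by 0.97 (adjusted p = 0.00449), and Cebpb was at 0.20 and not called. Nfkbiz, an IkappaB protein that works in the nucleus and is needed for the transcription of Lcn2 in other cells, was at 16.7 ± 3.43 CPM at 0 h and 38.0 ± 7.03 at 48 h (SD, n = 3), a log2 fold change of 1.19 (SE 0.176, adjusted p = 0.000418). The NF-kappaB subunits Nfkb1 (-0.11) and Rela (0.30) were not called, although Rela was with library totals and without 0 h replicate 1.

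Of 18 feedback inhibitors, 4 were higher and 3 lower (22.2% and 16.7%, median 0.15), shares near those of all genes (21.4% and 19.3%). Socs3, which is induced by STAT3 and limits it, rose by 1.97 (SE 0.162, adjusted p = 7.8e-06), from 11.1 ± 1.46 to 43.4 ± 8.89 CPM (SD, n = 3). Tnfaip3, an inhibitor of NF-kappaB signalling, rose by 1.40 (adjusted p = 0.0184), and this call was lost without 0 h replicate 3 or without 48 h replicate 1, where the value was 0.68. Ptpn11 and Pias1 rose by 0.50 and 0.36 (adjusted p = 0.00488 and 0.019), the latter not with the replicate number in the fit or without 0 h replicate 3 or 48 h replicate 2. Nfkbia, the gene of IkappaB alpha, was at -0.24 and not called. Tsc22d3 fell by 1.52, Dusp1 by 1.40 and Zfp36 by 1.28 on the log2 scale (adjusted p = 0.000187, 8.75e-05 and 0.00029). With library totals 7 genes of this list were called higher, beside 31.2% of all genes, and the fewest with a library left out was 2.

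Genes for the partners of SAA were next compared. Of 14 tested genes for SAA partners and receptors, 1 was higher and 6 lower (7.14% and 42.9%, median -0.28), against 21.4% and 19.3% of all genes. Apoa1 and Apoa2, the main apolipoproteins of high-density lipoprotein, fell by 0.78 and 1.40 (adjusted p = 0.00321 and 0.000101). Pon1, an esterase carried on the same particle, fell by 1.29 (adjusted p = 9.68e-05), and Scarb1, a receptor for that particle that also takes up SAA, fell by 0.51 (adjusted p = 0.00665). Abca1 and Abca7, cholesterol and lipid transporters, were at -0.51 and -0.62 (adjusted p = 0.0196 and 0.027). Both calls were lost with library totals and without 48 h replicate 2 or 3, and that on Abca7 also without 0 h replicate 2 or 3 and with the replicate number in the fit. With library totals 3 of the 14 were called lower, beside 12.4% of all genes, and the call on Scarb1 was lost. The gene that was higher was P2rx7, a purinergic receptor, at 0.93 (adjusted p = 0.019), a call lost without 0 h replicate 1 or 48 h replicate 1.

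Of 10 tested genes for partners and receptors of lipocalin 2 and for siderophore iron, 2 were higher and 1 lower (20% and 10%, median 0.11). Of all genes tested, 21.4% were higher, near the first share, and 19.3% lower. The receptors Slc22a17 (0.621 ± 0.161 CPM at 0 h, 0.535 ± 0.0624 at 48 h, SD, n = 3) and Lrp2 (1.30 ± 0.555 and 1.76 ± 1.15) were low and not called. Bdh2, an enzyme linked to a mammalian siderophore, fell by 1.16 (adjusted p = 0.00365). Hp, the gene of haptoglobin, which captures free hemoglobin, rose by 2.02 (adjusted p = 9.95e-05). Tfrc, the transferrin receptor, rose by 0.58 (adjusted p = 0.0407), a call lost in 5 of the 13 alternatives. Among 9 tested lipocalin relatives, 3 were higher and 3 lower (33.3% each, against 21.4% and 19.3% of all genes, median 0.23). The higher genes were Orm2, Orm3 and Orm1, the genes of acid glycoprotein, with log2 fold changes of 5.57, 2.71 and 2.26 (adjusted p = 7.61e-08, 0.000261 and 2.47e-05). The lower ones were Ptgds at -2.14, C8g at -1.32 and Rbp4 at -0.59 (adjusted p = 0.000214, 1.45e-05 and 0.0165), and the call on Rbp4 was lost with library totals and without 0 h replicate 3.

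Of 29 tested genes for other acute-phase proteins, 21 were higher and 4 lower at 48 h (72.4% and 13.8%, against 21.4% and 19.3%), with a median log2 fold change of 1.39 against -0.00 over all genes. Most are genes of plasma proteins, but the list also holds genes of proteins of the cell, such as Mt1, Mt2 and Pigr. Orm2 was at a log2 fold change of 5.57, Mt1, a metallothionein, at 5.06, Fgl1, a secreted relative of fibrinogen, at 3.29 and Apcs, the gene of serum amyloid P, at 3.25 (adjusted p = 3.05e-05 for Mt1, 4.23e-07 for Fgl1 and 0.000128 for Apcs). Without 48 h replicate 1 the fold was smaller by 1.57 times for Mt1 and by 1.56 times for Apcs. Mt2 was called higher as well, but it had 0 or 1 counts in each library at 0 h, so no fold is given. The 4 lower genes were Pigr, an antibody transporter, at -1.78, Serpina3k at -0.62, C4b at -0.44 and Crp, a major acute-phase protein in man, at -0.41 (adjusted p = 2.51e-05, 0.0182, 0.026 and 0.039). With library totals Pigr alone of these was called, and of 13 alternatives the call was lost in 7 for Crp, in 6 for C4b and in 3 for Serpina3k. Some higher calls were lost as well, in 5 alternatives for Cp, 4 for Fga, 3 for C3, 2 for Fgb and 2 for Il1rn. The number called higher was 19 to 25 with all libraries and 16 to 23 with a library left out.

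**Figure D5:**
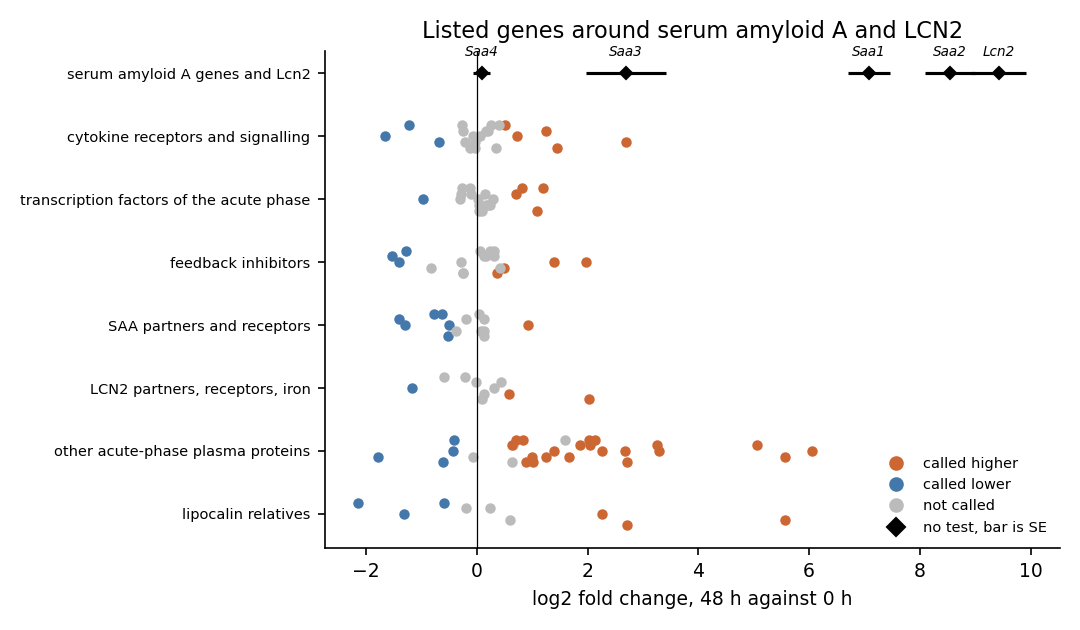
Each point is a tested gene, placed by its log2 fold change at 48 h against 0 h (horizontal axis) in the row of its list, in orange if called higher, blue if called lower and grey if not called, and genes of 2 lists appear in both. Black diamonds are the serum amyloid A genes and Lcn2 with their SE and without a test. Lcn2, Saa2 and Saa1 lie at 9.42, 8.55 and 7.08. The point of Mt2, at 0 or 1 counts at 0 h, is a fitted value that depends on the prior count.

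By the shape and size of its profile over the 6 libraries, the gene most like Lcn2 among 7563 genes of at least 10 mean CPM was Saa2. Likeness was the root mean squared difference of log2 CPM after each gene was centred on its own mean, and it was 0.427 for Saa2. Ly6d (0.876), Uhrf1 (1.07), Saa1 (1.14) and Kif18b (1.28) came next. For the sum of Saa1 and Saa2 the nearest genes were Ly6d (0.342), Uhrf1 (0.525), Mybl1 (0.654), Cdc6 (0.670) and Iqgap3 (0.696). Genes with large increases come first by construction in this measure. Ly6d (0.102 to 0.129 CPM at 0 h) and Kif18b (0.0301 to 0.354 CPM) were near the floor of 3 counts at 0 h, so their places depend on these low values and on the 0.01 CPM added before the logarithm. For Saa3 the nearest genes were Serpina3n (0.682), Apcs (0.691), Tifa (0.707), Hp (0.724) and Hpx (0.739). For Saa4 they were Dnajb11 (0.0335), Usb1 (0.0586), Lrrfip1 (0.0594), Grsf1 (0.0625) and Agap1 (0.0626).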

How the data were processed

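RNA-Seq counts of 6 hepatocyte libraries, 3 at 0 h and 3 at 48 h after PHx, were analysed. The authors deposited raw read counts per gene in the layout of htseq-count. The submitters' processing notes name Trim Galore 0.6.4, STAR 2.6, HTSeq 0.12.4 and the build mm10, while read length, strand setting and counting mode were not given in the sources used here, so reads shared by paralogs could have been lost or split. Reads on no gene (24.3% to 32.7%) and ambiguous reads were left out. All 55450 gene identifiers matched GENCODE M21.

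Differences were fitted with edgeR 4.0.16 in R 4.3.3 (TMM factors, glmQLFit and glmQLFTest; time was the only term) over the 17037 genes that reached 10 counts in 3 or more libraries. Benjamini-Hochberg adjustment covered all of these genes, and an adjusted p under 0.05 was a call. The SE of a log2 fold change was taken as its absolute value over the root of the F statistic, and the fits were tested on simulated data. For Saa1 and Saa2 a summed row was fitted in their place. Libraries of a group differed by far more than counting noise (mean chi-square per gene at least 25.8). The p-values set the difference between the time points against this spread between preparations, which the fit estimates with information from all genes. Reads carry no molecular identifiers, so floors cover counting error only.

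The members and lists were chosen with earlier results of these data known. Named were the members, called list genes at a log2 fold change of 1 or more in either direction (up to 6 per list, by size), regulators and receptors set whatever their values (Il6ra, Il6st, Stat3, Socs3, Cebpb, Cebpd, Cebpa, Nfkb1, Rela, Nfkbia, Nfkbiz, Il1r1, Osmr, Scarb1, Apoa1, Slc22a17, Lrp2), genes starting within 100 kb of a member or inside the SAA cluster, and the 5 genes of nearest profile. The profiles of Saa3 and Saa4, Crp, Rbp4, and the genes that complete a count of 5 or fewer were added after their values were seen. So were the acute-phase genes whose higher call was lost under an alternative. Promoter bases are RefSeq's (GRCm38.p6) and were found for all 5 genes. Alternatives were RLE factors, library totals, totals without the members, DESeq2 1.42.0, the replicate block, other filters and leaving out each library.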

Additional observations from a re-analysis of the deposited data

How the results depend on the processing

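The 3 libraries per group set the precision of every value. How far Saa1 and Saa2 can be told apart depends on the read length, which was not given. With library totals the genes called lower over all genes numbered 2110. Leaving out each library in turn gave log2 fold changes of 8.79 to 9.72 for Lcn2, 6.63 to 7.31 for Saa1, 8.06 to 8.84 for Saa2, 7.14 to 7.85 for their sum, 1.14 to 3.14 for Saa3 and -0.05 to 0.17 for Saa4. The lowest values of Lcn2 and Saa3 came without 48 h replicate 1, the library highest in both. With all libraries, over the other scalings, filters, the block and DESeq2, Lcn2 stayed between 9.26 and 9.60 and Saa3 between 2.08 and 2.84, and the cause of the differences was not tested. Over the tested genes, same-numbered libraries did not deviate together (correlations of 0.03, -0.07 and -0.14 for numbers 1, 2 and 3). This does not exclude pairs among the samples, and Saa1, Saa2 and Lcn2 were highest in replicate 1 of both groups, unlike Saa3 and Saa4. With the number as a replicate block Lcn2 was at 9.26, Saa3 at 2.08 and 6121 genes were called in place of 6926. The SE then went from 0.500 to 0.334 for Lcn2, from 0.447 to 0.232 for Saa2 and from 0.380 to 0.226 for Saa1. Of 140 main values recomputed under an alternative, 137 stayed within the spread between replicates or, for counts of genes, within 1.5 times the main count, among them Saa4, whose sign turned without 0 h replicate 2, and the 5308 genes called higher with library totals against 3638. The other 3 were the genes called lower with library totals, and Lcn2 and Saa3 without 48 h replicate 1. Of 217 further values, 35 moved, most of them small counts within a list, such as the lower acute-phase genes at 1 to 4. The 217 were counts within the lists, levels per length, ratios of the highest to the lowest 48 h library, shared stretches and shares of genes highest in 48 h replicate 1.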
